A study of Mus musculus with 23 samples.

Results

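The MAP kinase phosphatases are the dual specificity phosphatases that switch off the MAP kinases ERK, JNK and p38. The 10 genes described here are Dusp1, Dusp2, Dusp4, Dusp5, Dusp6, Dusp7, Dusp8, Dusp9, Dusp10 and Dusp16. They were taken by gene symbol from 24917 gene loci, and each symbol stood at 1 locus. RNA was sequenced from the colonic epithelium of male C57BL/6 mice that entered 3 diet regimens at 6 weeks of age, after depletion of ribosomal RNA. The study's methods give the strain as C57BL/6J. The LF mice ate a diet with 10% fat for 43 weeks, and the HF mice ate a diet with 60% fat for 43 weeks. The HF-LF mice ate the 60% fat diet for 15 weeks and then the 10% fat diet for 28 weeks, so that they model weight loss after obesity. Batch 1 has 4 samples from LF, 3 from HF and 4 from HF-LF mice, and batch 2 has 4, 3 and 5. What a batch stands for is not given in the labels. Each diet has more samples than the 5 mice that the study's methods name for a regimen. Whether the 23 samples are 23 mice is thus unknown, and where the batches are fitted together, 1 mouse may enter through several samples. Epithelium was released from the whole colon with EDTA, which leaves the cell types of the crypt and surface together.

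MAP kinases are activated by phosphorylation of a threonine and a tyrosine, and the dual specificity phosphatases remove both phosphates. Many of their genes are induced by the kinases they switch off, which makes them both feedback inhibitors and readouts of signaling. In the intestinal epithelium, ERK signaling below the EGF receptor drives proliferation of crypt cells, while JNK and p38 respond to stress. The family is read here in 3 classes of textbook standing: Dusp1, Dusp2 and Dusp4 are nuclear enzymes that act on several MAP kinases, Dusp5, Dusp6, Dusp7 and Dusp9 prefer ERK, and Dusp8, Dusp10 and Dusp16 prefer JNK and p38.

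Between 29189922 and 46498521 reads were counted on genes per sample in batch 1, and between 31607019 and 65320947 in batch 2. Levels are given as CPM, counts scaled to library size with TMM factors within a batch, and 3 counts correspond to between 0.0459 and 0.103 CPM. This floor speaks for counting error alone, as no molecular identifiers were used. Markers of the labelled tissue were abundant in every sample: the summed level of 11 epithelial genes lay between 15810 and 27130 CPM, and Krt8, a keratin of simple epithelia, had the highest mean of them over the samples of each batch. The summed level of 7 T lymphocyte genes was at most 12.6 CPM, and that of 3 genes shared by all leukocytes at most 27.4 CPM. The 4 globin genes of the erythroid list had no count in any sample, while Alas2, the other gene of that list, was scarce and was called higher in HF than in LF samples of batch 2, at 1.233 against 0.352 CPM (adjusted p = 0.0395). In such bulk samples, fewer cells of a type and less RNA per cell cannot be told apart.

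On a scale that allows genes to be compared, CPM per kb of exon, Dusp1 stood far above the other members. Dusp1, an early response gene whose product acts on p38, JNK and ERK, reached 138 ± 9.86 CPM per kb (SD, n = 4) in the LF samples of batch 1. Dusp6, the cytoplasmic ERK phosphatase of growth factor feedback, followed at 21.5 ± 1.85 CPM per kb (SD, n = 4), and Dusp5, its nuclear counterpart, at 18.6 ± 2.34 (SD, n = 4). The means of Dusp6 and Dusp5 differed by more than the SD of either gene. Next in this group came Dusp16 at 8.62 ± 0.524 and Dusp8 at 5.43 ± 0.509 CPM per kb (SD, n = 4), both phosphatases of JNK and p38. Dusp10, at 3.22 ± 0.472, Dusp4, at 3.19 ± 0.367, and Dusp7, at 2.41 ± 0.469 CPM per kb (SD, n = 4), lay close together, and Dusp10 and Dusp4 did not differ beyond their spread. Dusp9 and Dusp2 were the scarcest, at 0.217 ± 0.0896 and 0.214 ± 0.0673 CPM per kb (SD, n = 4). All 10 members passed the filter on low counts in each batch, with as few as 2 reads for Dusp2 and 9 for Dusp9 in a sample. The level of Dusp5 on this scale depends on the exon length: with 1155 bases of exon inside the locus given with the counts it stood at 18.6, and with the 2473 bases of the whole annotated transcript at 8.70 CPM per kb in LF samples of batch 1, a comparison of lengths made after the data were seen.

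**Figure D1:**
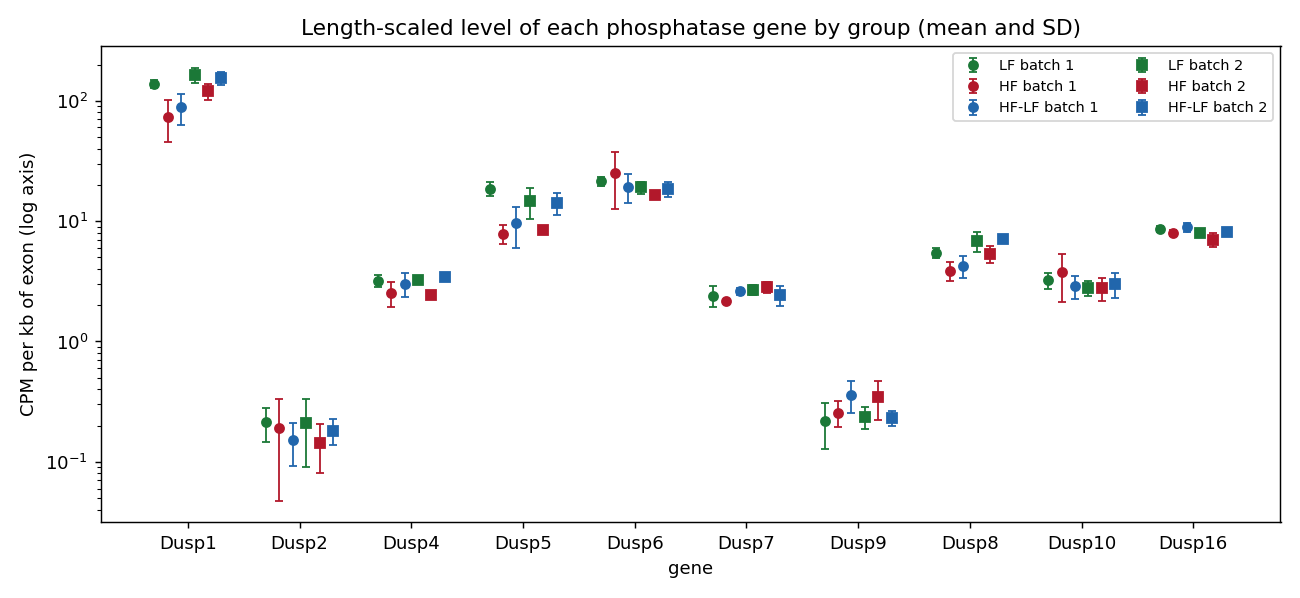
Level of each phosphatase gene on a log axis, in CPM per kb of exon, as mean and SD over the samples of each diet and batch. Dusp1 is the most abundant member in every group, and Dusp2 and Dusp9 are the lowest.

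The comparison of HF with LF mice asks which of these brakes differ after 43 weeks of the high-fat diet. In batch 2, Dusp1, Dusp4 and Dusp5 were lower in HF samples and passed the test, 3 of 10 members, where 7.44% of the 14377 genes tested were called in either direction. A gene was called where edgeR's quasi-likelihood test gave a Benjamini-Hochberg adjusted p under 0.05 over all genes tested and a fold change above 1.2. In batch 1, edgeR called 0 of the 10 members and 0% of 14428 genes, with 3 members and 3198 genes at an unadjusted p under 0.05. DESeq2 called 2 members there, Dusp1 and Dusp5, and 478 genes, and limma voom with sample weights called Dusp1, Dusp5 and Dusp8 and 2422 genes. Over both batches, with batch as a covariate, Dusp1, Dusp4, Dusp5 and Dusp8 fell, 4 of 10 members beside 17.8% of 14725 genes. No member was called higher in HF samples in any of these fits by edgeR, DESeq2 or limma voom, apart from Dusp9 by limma voom in batch 2 and over both batches. Without a test, every HF sample lay below every LF sample for Dusp1, Dusp5 and Dusp8 in batch 1, 3 members beside 7.33% of genes, and for Dusp4 and Dusp5 in batch 2, 2 members beside 13.5%. The study itself names Dusp1 and Dusp5 as lower in obese mice, so the samples are not taken as independent evidence for them.

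**Figure D2:**
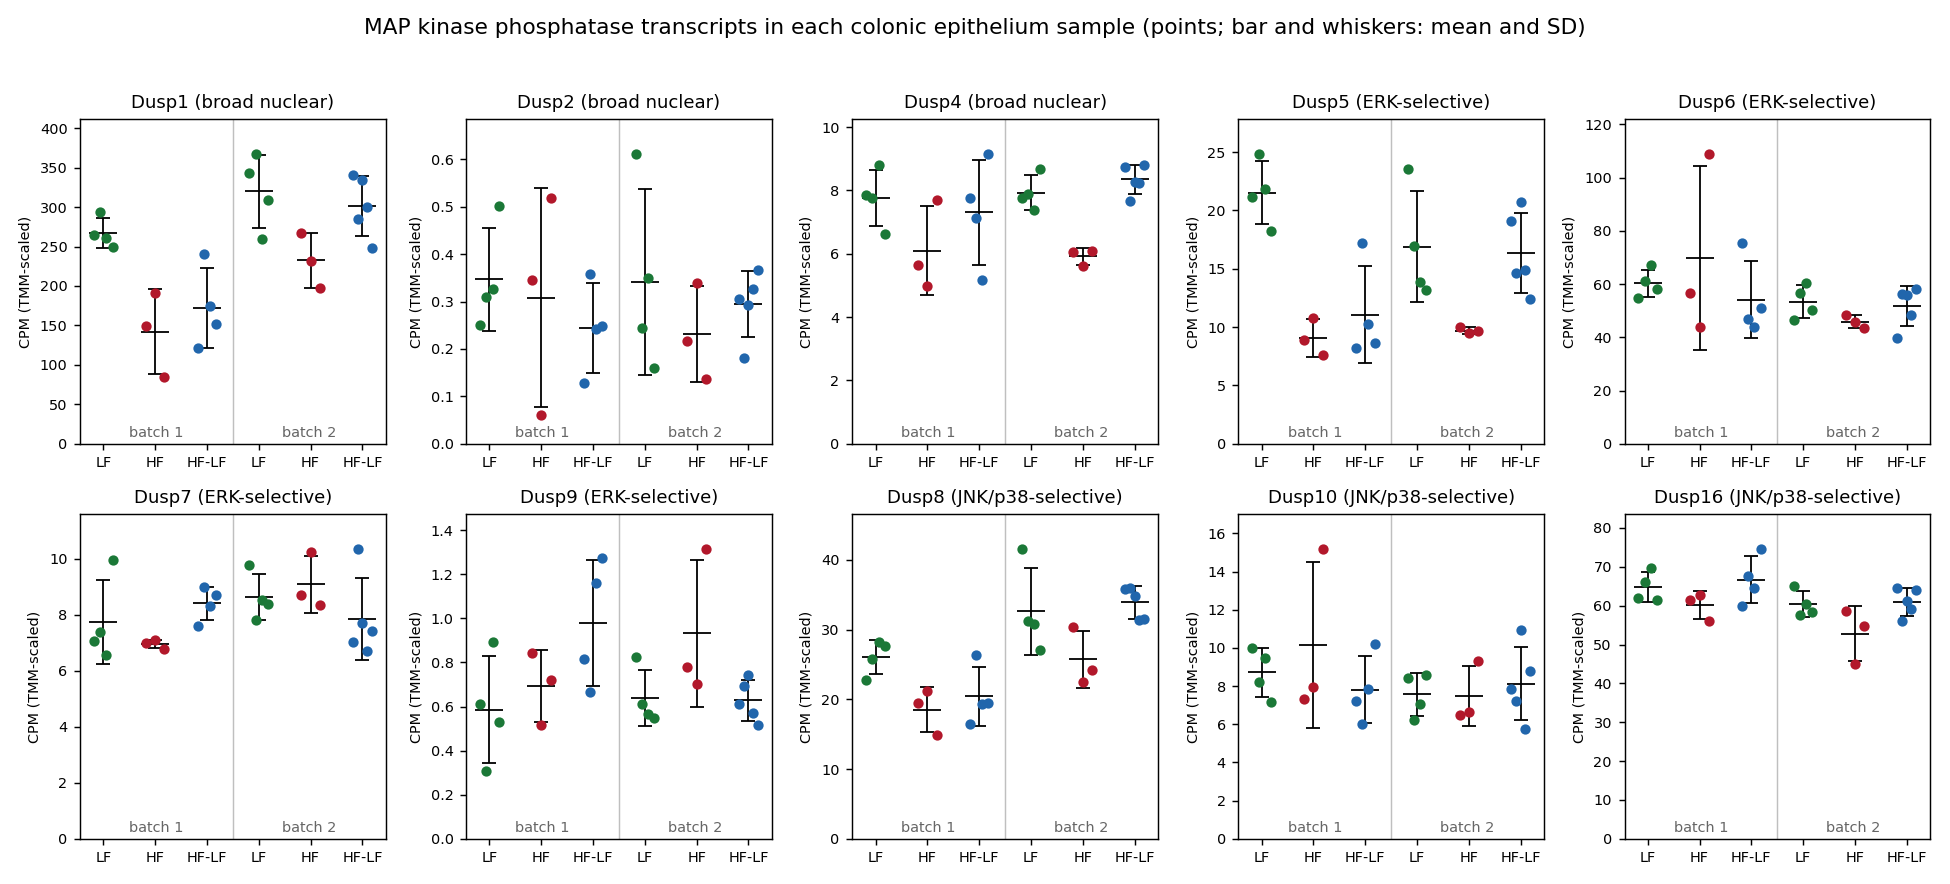
Level of the 10 phosphatase genes in each sample, in CPM on a linear axis from 0, with the mean and SD of each diet in each batch. Dusp5 lies lower in all HF samples than in all LF samples of the same batch, and 3 of 4 HF-LF samples lie among the HF samples in batch 1 while none does in batch 2.

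Among the nuclear enzymes with a broad range, Dusp1 stood at 264, 294, 261 and 249.5 CPM in the LF samples of batch 1 and at 149.7, 191 and 84.9 CPM in the HF samples. The 4 LF samples lay close together, while the HF samples spread widely below them, with replicate 3 lowest. This gave a log2 fold change of -0.91 (SE 0.250) with adjusted p = 0.155 by edgeR, which did not pass the test. In batch 2, Dusp1 stood at 343, 367, 260.1 and 309 CPM in LF samples and at 267, 232 and 198 CPM in HF samples. Replicate 3 of the LF samples lay below replicate 1 of the HF samples, and the other values did not cross. Dusp1 fell there by 0.46 on the log2 scale (SE 0.132, adjusted p = 0.0457), just inside the threshold, and over both batches by 0.68 (SE 0.158, adjusted p = 0.00626).

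Dusp4, a nuclear phosphatase of ERK and JNK that is itself induced by ERK, differed less but more evenly. In batch 2 its level was 7.77, 7.89, 7.38 and 8.67 CPM in LF samples and 6.07, 5.62 and 6.07 CPM in HF samples. The HF samples lay within a narrow band under the lowest LF sample. The log2 fold change was -0.42 (SE 0.0898, adjusted p = 0.026). In batch 1, LF samples were at 7.85, 7.77, 8.79 and 6.61 CPM and HF samples at 5.63, 4.98 and 7.68 CPM. The groups overlapped there through HF replicate 3, and the log2 fold change of -0.34 had an adjusted p of 0.308 by edgeR. With 1 sample left out, this value lay between -0.54 and -0.22. Over both batches Dusp4 fell by 0.37 (SE 0.107, adjusted p = 0.0156). Dusp2, a phosphatase best known from activated immune cells, was counted with 2 to 23 reads per sample, and its values between 0.0608 and 0.612 CPM overlapped between all diets in both batches.

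Dusp5, which removes phosphate from ERK in the nucleus and holds it there, showed the largest difference of the family between HF and LF samples in batch 1, in batch 2 and over both batches by edgeR with all samples in the fit. Without HF replicate 2 of batch 2, Dusp2 had a larger one (-0.92 against -0.77), and without LF replicate 1 of batch 2, Dusp9 did (0.72 against -0.59). In batch 1 it stood at 21.2, 24.8, 21.8 and 18.2 CPM in LF samples and at 8.86, 10.8 and 7.57 CPM in HF samples. The highest HF sample lay far below the lowest LF sample. With a log2 fold change of -1.25 (SE 0.235), Dusp5 ranked 10 among 14428 genes by p, and still the adjusted p was 0.137. In batch 2, Dusp5 stood at 23.5, 17.0, 13.9 and 13.1 CPM in LF samples and at 9.99, 9.47 and 9.66 CPM in HF samples. The HF samples were nearly level with each other, while LF replicate 1 stood above its group. Dusp5 fell by 0.79 on the log2 scale in batch 2 (SE 0.195, adjusted p = 0.0357) and by 1.03 over both batches (SE 0.188, adjusted p = 0.00251), where it ranked 71 of 14725 genes by p.

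The other phosphatases that prefer ERK did not share this pattern. Dusp6 is often read as a gauge of ERK activity. It stood at 54.8, 61.1, 67.0 and 58.0 CPM in the LF samples of batch 1 and at 56.5, 43.9 and 108.9 CPM in the HF samples. HF replicate 3 held the highest Dusp6 value of the 23 samples, and the other HF values lay within or under the LF range. The log2 fold change was 0.21 with adjusted p = 0.622 with this sample and -0.25 without it. In batch 2, Dusp6 lay between 46.5 and 60.3 CPM in LF samples and between 43.5 and 48.4 CPM in HF samples, a log2 fold change of -0.22 (adjusted p = 0.196). Dusp7, a cytoplasmic ERK phosphatase, ranged from 6.56 to 10.3 CPM over all samples, with log2 fold changes of -0.15 in batch 1 and 0.075 in batch 2 (adjusted p = 0.533 and 0.73). With 1 sample left out, the value of batch 1 lay between -0.23 and -0.0097. Dusp9, a gene of chromosome X whose product also prefers ERK, was scarce, at 0.309 to 1.315 CPM. Its log2 fold change was 0.24 in batch 1 and 0.58 in batch 2, with adjusted p = 0.703 and 0.13 by edgeR. These values rest on single samples: without LF replicate 2 the value of batch 1 was 0.044 and without LF replicate 3 0.50, and that of batch 2 was 0.23 without HF replicate 3. HF replicate 3 of batch 2 held the highest Dusp9 value, 1.315 CPM.

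Of the phosphatases that prefer JNK and p38, Dusp8 differed most. In batch 1 it stood at 22.7, 25.8, 28.2 and 27.6 CPM in LF samples and at 19.5, 21.2 and 14.9 CPM in HF samples. The groups did not overlap, but the gap between them was small. Its log2 fold change of -0.49 (SE 0.161) had an adjusted p of 0.163. In batch 2, Dusp8 stood at 41.6, 31.3, 30.7 and 27.0 CPM in LF samples and at 30.3, 22.6 and 24.3 CPM in HF samples. Here HF replicate 1 reached into the LF range, and the log2 fold change of -0.34 had an adjusted p of 0.0891. It was -0.21 without LF replicate 1 and -0.48 without HF replicate 1. Over both batches Dusp8 fell by 0.41 (SE 0.112, adjusted p = 0.0124).

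Dusp10 and Dusp16, the other phosphatases of JNK and p38, were not called. Dusp10 stood at 10.0, 8.21, 9.49 and 7.17 CPM in LF samples of batch 1 and at 7.31, 7.96 and 15.2 CPM in HF samples. The highest value was again that of HF replicate 3, and the log2 fold change turned from 0.22 to -0.19 without it. In batch 2 the groups overlapped at 6.20 to 8.56 CPM in LF samples and up to 9.30 CPM in HF samples. Dusp16, which shuttles between nucleus and cytoplasm, varied little, from 44.9 to 74.6 CPM over the 23 samples. Its log2 fold change between HF and LF samples was -0.11 in batch 1, -0.19 in batch 2 and -0.14 over both batches, with adjusted p = 0.465, 0.126 and 0.0699. With 1 sample left out, it lay between -0.14 and -0.055 in batch 1 and between -0.27 and -0.081 in batch 2. Over both batches it then lay between -0.17 and -0.094.

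How far these calls rest on single samples differs between the fits. Over both batches, all 4 members were called in each of the 23 fits that left out 1 sample, with 1513 to 3725 genes called in all. If 1 mouse gave several samples, such a fit can still hold that mouse, so dependence on single mice was not tested. In batch 2 the count of members ran from 0 to 4 and that of all genes from 15 to 2560. Without LF replicate 1, LF replicate 3, HF replicate 2 or HF replicate 3 of batch 2, 0 members were called, with 49, 41, 15 and 49 genes in all by edgeR, where the other tools were not run. Without LF replicate 2, 1 member was called, Dusp4. Dusp1 was no longer called without HF-LF replicate 2, 3 or 4, and Dusp5 without HF replicate 1, which left 2 members each time, and Dusp8 joined the 3 members without LF replicate 4. The log2 fold change of Dusp5 in batch 2 lay between -0.90 and -0.59 in all these fits, and that of Dusp4 between -0.45 and -0.37. In batch 1, Dusp5 was called without HF-LF replicate 2, and Dusp1 and Dusp5 were called without HF replicate 2, where edgeR called 1352 genes in all.

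**Figure D3:**
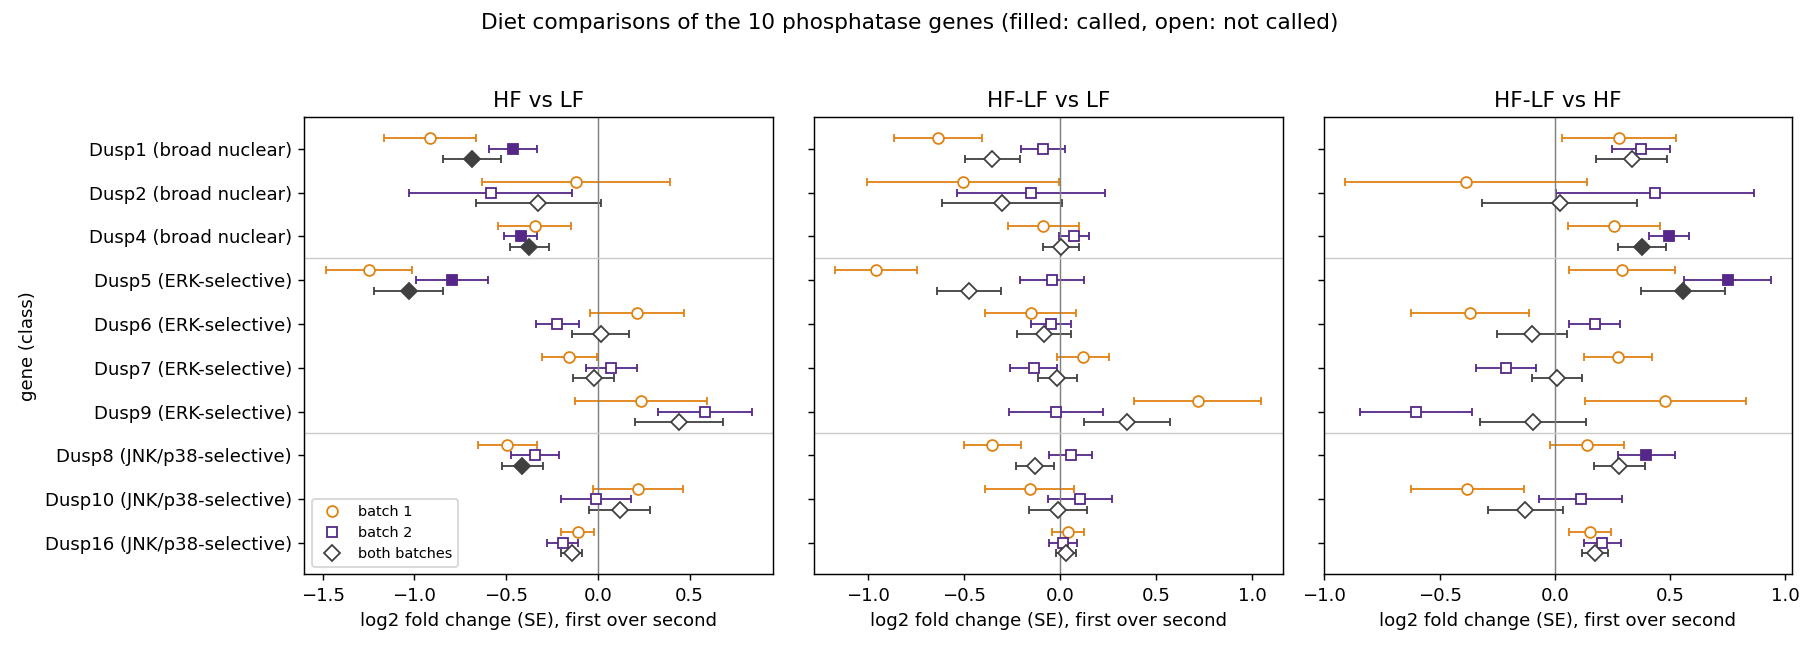
Log2 fold change and SE of each phosphatase gene for HF over LF, HF-LF over LF and HF-LF over HF, in batch 1, batch 2 and both batches. Filled symbols mark calls by edgeR, which in the comparison of HF with LF samples are Dusp1, Dusp4 and Dusp5 in batch 2 and these genes and Dusp8 over both batches.

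The comparison of HF-LF with HF mice asks what 28 weeks of the low-fat diet changed after obesity. The comparisons share samples: each HF and LF group serves in 2 of them, so their values are given side by side and not as evidence for each other. In batch 2, Dusp4, Dusp5 and Dusp8 were higher in HF-LF than in HF samples, 3 members beside 14.5% of genes called. All HF-LF samples lay above all HF samples for these 3 members, where 14.6% of genes had such groups. In batch 1, 0 members were called by edgeR, DESeq2 or limma voom, beside 0.00693% of genes, and 0 members had an unadjusted p under 0.05 by edgeR. Dusp7 alone had HF-LF samples all above the HF samples in batch 1, 1 member beside 3.95% of genes. Over both batches Dusp4 and Dusp5 were called higher, 2 members beside 10.2% of genes.

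The HF-LF samples of batch 2 held Dusp4 at 8.74, 7.66, 8.27, 8.25 and 8.81 CPM, against at most 6.07 CPM in HF samples. They lay close to the LF range of 7.38 to 8.67 CPM. Dusp4 rose from HF to HF-LF by 0.49 on the log2 scale in batch 2 (SE 0.0863, adjusted p = 0.0102) and by 0.38 over both batches (SE 0.105, adjusted p = 0.0221). In batch 1, Dusp4 was at 7.76, 7.12, 5.18 and 9.15 CPM in HF-LF samples, which overlapped both other diets, and the log2 fold change of 0.26 had an adjusted p of 0.616.

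For Dusp5, all HF-LF samples lay above all HF samples in batch 2 but not in batch 1. The difference between the batches did not pass edgeR's interaction test, described further on (HF-LF over HF, adjusted p = 0.727). In batch 2 Dusp5 stood at 19.1, 14.6, 20.7, 14.9 and 12.4 CPM, all above the HF maximum of 9.99 CPM and within or under the LF range. In batch 1 it stood at 8.16, 17.2, 10.3 and 8.66 CPM, where 3 samples lay among the HF samples and replicate 2 lay near the LF minimum of 18.2 CPM. The rise from HF to HF-LF was 0.75 on the log2 scale in batch 2 (SE 0.188, adjusted p = 0.0212) and 0.56 over both batches (SE 0.183, adjusted p = 0.0413). In batch 1 the log2 fold change was 0.29 (SE 0.231, adjusted p = 0.623), and without HF-LF replicate 2 it was -0.002.

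Dusp8 stood at 35.8, 36.0, 34.8, 31.3 and 31.5 CPM in HF-LF samples of batch 2 and at 16.5, 26.4, 19.3 and 19.5 CPM in those of batch 1. In batch 2 these values lay above all HF samples, and in batch 1 they overlapped with them. Dusp8 rose from HF to HF-LF by 0.40 on the log2 scale in batch 2 (SE 0.123, adjusted p = 0.0387), and over both batches the log2 fold change of 0.28 had an adjusted p of 0.0755. For Dusp1, HF-LF samples stood at 340.3, 284, 334, 299.7 and 247 CPM in batch 2, against 198 to 267 CPM in HF samples, and replicate 5 overlapped with the HF samples. The log2 fold change of 0.37 had an adjusted p of 0.0505 by edgeR, just outside the threshold, and DESeq2 and limma voom called it. Dusp16 was higher in HF-LF than in HF samples over both batches with adjusted p = 0.0409, but its log2 fold change of 0.17 lay under the fold threshold.

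These calls also moved with single samples. In batch 2, 0 members and 11 genes in all were called from HF to HF-LF without HF replicate 2, and 1 member, Dusp4, beside 684 genes in all, without HF replicate 3. Dusp8 was not called without HF-LF replicate 1, 2, 3 or 4, and Dusp7 was called, as lower, without replicate 2. Dusp1 was called as well without LF replicate 3, HF-LF replicate 5 or HF replicate 1, and Dusp16 joined these genes without HF replicate 1, which made 5 members beside 1897 genes in all. Over both batches, 465 genes in all were called without HF replicate 3 of batch 1 and 2647 without HF replicate 2 of batch 1, against 1500 with all samples, and 0 members, beside 495 genes in all, were called without HF replicate 2 of batch 2. Dusp4 was the 1 member called without HF replicate 1 or 3 or HF-LF replicate 2 of batch 1, or without HF replicate 1 or 3 or HF-LF replicate 1, 3 or 4 of batch 2. Dusp1 and Dusp8 joined Dusp4 and Dusp5 without HF-LF replicate 1 or HF replicate 2 of batch 1, 4 members in all. With limma voom Dusp4 alone was called, and DESeq2 added Dusp8 to Dusp4 and Dusp5.

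The comparison of HF-LF with LF mice asks what of the obese state was still measurable after weight loss. In batch 1, edgeR called 0 members and 0% of genes, with 4 members and 763 genes at an unadjusted p under 0.05, while DESeq2 called 1 member, Dusp5, beside 4 of 19237 genes, and limma voom called 0. Of the 4 members at that unadjusted p, Dusp1, Dusp5 and Dusp8 had lower means in HF-LF samples. Dusp9 had a higher mean, with a log2 fold change of 0.72 (adjusted p = 0.792 by edgeR). In batch 2 edgeR, DESeq2 and limma voom each called 0 members, beside 0.00696% of genes by edgeR, with 0 members at an unadjusted p under 0.05. Over both batches edgeR called 0 members and 0% of genes, with 2 members and 599 genes at an unadjusted p under 0.05, and DESeq2 and limma voom called 0 members. In batch 1, all HF-LF samples lay below all LF samples for Dusp1 and Dusp5, 2 members beside 1.56% of genes. Dusp5 was lower by a log2 fold change of -0.96 (SE 0.212), rank 7 of 14428 genes by p, with adjusted p = 0.792. Dusp1 stood at 121, 241, 174.9 and 152 CPM in these HF-LF samples, with a log2 fold change of -0.63 (SE 0.227, adjusted p = 0.792). HF-LF replicate 2 was the highest of its group for Dusp1, Dusp5 and Dusp8, and without it the log2 fold change of Dusp5 was -1.25, which edgeR called with adjusted p = 0.0144, beside 6 of 14338 genes. In batch 2 the log2 fold changes were -0.087 for Dusp1 and -0.043 for Dusp5, with adjusted p = 1 for both.

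Whether the batches differ was tested as an interaction of batch and diet in all 23 samples. edgeR found 0 of 14725 genes with an adjusted p under 0.05 in any of the 3 comparisons, the 10 members included, and DESeq2 and limma voom were not run for it. No member passed with RLE factors, with no filter, with robust estimation or with each sample left out either, alternatives added after the data were seen. The smallest adjusted p of a member fell to 0.0769 for HF-LF over LF without HF-LF replicate 2 of batch 1. The smallest p among members was that of Dusp5 for HF-LF over LF, where the log2 fold change was 0.91 higher in batch 2 than in batch 1 (SE 0.285, adjusted p = 0.632). Dusp8 had a difference of 0.40 in the same comparison (SE 0.191, adjusted p = 0.645). Dusp9 and Dusp7 had differences of -1.10 and -0.51 for HF-LF over HF (adjusted p = 0.644 for both). For HF over LF, 0 members had an unadjusted p under 0.05, and the smallest adjusted p was 0.831, that of Dusp1, with a difference of 0.47. The lower Dusp5 of HF-LF mice was measured in batch 1 only, and its difference from batch 2 did not pass the correction over all genes.

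The genes called lower came from all 3 classes. For HF over LF over both batches, 1 of 4 ERK-selective members was called lower, Dusp5, with a class median log2 fold change of -0.0027, and 1 of 3 members selective for JNK and p38, Dusp8, with a class median of -0.14. Of the broad nuclear members, 2 of 3 were called lower, Dusp1 and Dusp4, with a class median of -0.37. Over all genes tested, 17.8% were called, 1239 of 14725 as lower, and the median was -0.003. The median of the ERK-selective class hides opposite values, from -1.03 for Dusp5 to 0.44 for Dusp9. In batch 1 the class medians were 0.03 for ERK, -0.11 for JNK and p38 and -0.34 for the broad class, and in batch 2 they were -0.072, -0.19 and -0.46. From HF to HF-LF over both batches the medians were -0.043, 0.17 and 0.33 in the same order, beside 0.0055 over all genes. Of the 4 members called lower in HF samples, Dusp1, Dusp4 and Dusp5 encode nuclear enzymes. So does Dusp2, which was not called over both batches (log2 fold change -0.32, adjusted p = 0.486 by edgeR). No test compared the classes, since the members were chosen with results known.

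The pathway around the phosphatases gave values of its own over both batches. Of 13 MAP kinases, 12 were tested and 2 fell in HF samples, where 17.8% of all genes were called and 1239 of 14725 were lower: Mapk12, the p38 gamma gene, with a log2 fold change of -0.75 (adjusted p = 0.00592), and Mapk15, an atypical kinase, with -0.55 (adjusted p = 0.0279). Mapk12 had -1.09 in batch 1 and -0.42 in batch 2, and Mapk15 had -0.72 and -0.40. Within batch 1 and within batch 2, edgeR called 0 of the 12 MAP kinases, beside 0% and 7.44% of all genes. Of the 7 kinases above them, 0 were called by edgeR, with 4 at an unadjusted p under 0.05. Among these, Map2k7, which activates JNK, had a log2 fold change of -0.26, Map2k5, which activates ERK5, -0.20, and Map2k4 0.15, with adjusted p = 0.00991, 0.0287 and 0.0562. Map2k7 and Map2k5 missed the call by the fold threshold alone. Of 18 RAF and MAP3K genes, 17 were tested and 4 fell, beside the same 17.8% of all genes, Map3k9 and Map3k3 by 0.26 and 0.27 among them (adjusted p = 0.00838 and 0.0109), while Map3k4 had a log2 fold change of -0.18 (adjusted p = 0.0196), under the fold threshold. The class medians were -0.035, -0.087 and -0.14 for the 3 tiers of kinases, beside -0.003 over all genes.

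Of 14 further negative regulators of receptor tyrosine kinase and ERK signaling, 2 fell in HF samples over both batches, beside 17.8% of all genes called, with a median log2 fold change of -0.13. Spry1, a Sprouty inhibitor of growth factor signaling, fell by 0.53 (adjusted p = 0.00307), and the other call was Rasa4, with -0.33 (adjusted p = 0.049), a gene named here after its values were seen. Spred2 and Errfi1, an inhibitor of the EGF receptor, had log2 fold changes of -0.23 each, under the fold threshold (adjusted p = 0.0244 and 0.0378). By edgeR, Spred2 was called lower in batch 2, at -0.38 (adjusted p = 0.024), and stood at -0.098 in batch 1 (adjusted p = 0.627). Errfi1 had -0.44 in batch 1 and -0.032 in batch 2 (adjusted p = 0.137 and 0.81). The study names Spry1, Rasa4, Errfi1 and Mapk12 as lower in obese mice too, so they are no independent evidence either. Of 14 small atypical dual specificity phosphatases, 10 were tested and 0 were called by edgeR, with 3 at an unadjusted p under 0.05: Dusp18, Dusp19 and Dusp3 had log2 fold changes of -0.24, 0.23 and 0.11. Dusp18 and Dusp19 had adjusted p = 0.0332 and 0.0442 and missed the call by the fold threshold. Their median was 0.093, against -0.23 for the 10 members. Of 8 other phosphatases of MAP kinases, 0 were called by edgeR, with 2 at an unadjusted p under 0.05. Ppp2cb and Ppp2ca, catalytic subunits of protein phosphatase 2A, had log2 fold changes of 0.24 and 0.17 (adjusted p = 0.02 and 0.048, under the fold threshold), and Ptpn7 -0.54 (adjusted p = 0.251).

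Of 15 early response genes that ERK and AP-1 signaling induce, 13 had a lower and 2 a higher mean in HF samples over both batches. Of these genes, 10 fell over both batches, where 17.8% of all genes were called, and 8 in batch 2, where 7.44% were, with median log2 fold changes of -0.53 and -0.40, beside -0.003 and -0.013 over all genes. In batch 1 edgeR called 0 of them, with 11 at an unadjusted p under 0.05 and a median of -0.70. Jund, Junb and Ier2 had the smallest p: they fell over both batches by 0.59, 0.64 and 0.66 on the log2 scale, with adjusted p = 0.00129, 0.00129 and 0.00169. The study also reports lower primary response genes in obese mice, so this list is not independent of it. From HF to HF-LF, 8 of the 15 rose over both batches and 10 in batch 2, beside 10.2% and 14.5% of all genes called, and the medians were 0.37 and 0.38. In batch 1 edgeR called 0 of the 15 for this comparison, beside 0.00693% of all genes. There, 5 had an unadjusted p under 0.05, and the median was 0.30. Junb and Ier2 rose by 0.43 and 0.44 over both batches (adjusted p = 0.0132 and 0.0159), while Jund had a log2 fold change of 0.15 (adjusted p = 0.214). From LF to HF-LF edgeR called 0 of the 15 over both batches, with 5 at an unadjusted p under 0.05 and a median of -0.14. Jund had a log2 fold change of -0.43 there, with adjusted p = 0.0884, and no gene had a smaller one in this comparison.

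Markers of other cell types differed between some groups. The summed level of 6 smooth muscle genes in batch 2 was 19.9, 7.40, 31.0 and 5.86 CPM in LF samples and 4.68, 0.858 and 3.26 CPM in HF samples. It was 15.3, 1.84, 2.15, 11.2 and 6.09 CPM in HF-LF samples, with replicates 2 and 3 within the HF range. Between HF and LF samples, 1 of the 6, Actg2, was called lower with a log2 fold change of -3.01 (adjusted p = 0.035). Myh11 was the most abundant of them, and none of the 6 was at 0 in all samples. In batch 1 the same sum was 1.17 to 11.2 CPM in LF, 0.541 to 10.05 CPM in HF and 2.51 to 50.2 CPM in HF-LF samples. HF-LF replicate 2 of batch 1, which stood out for Dusp1, Dusp5 and Dusp8, held the highest sum, 50.2 CPM, and HF replicate 3, which stood out for Dusp6 and Dusp10, the lowest, 0.541 CPM. HF replicate 3 of batch 1 also held the lowest values of the 23 samples for Dusp1, Dusp5 and Dusp8, at 84.9, 7.57 and 14.9 CPM. That HF sample also had the lowest sums of 6 fibroblast genes, led by Col3a1, at 2.88 CPM, and of 4 endothelial genes, led by Pecam1, at 2.21 CPM, over the 23 samples. The smooth muscle sum and Dusp5 of other samples of batch 1 stood as follows. HF-LF replicates 1 and 4 had sums of 24.2 and 19.3 CPM, above all LF samples, with Dusp5 at 8.16 and 8.66 CPM. HF-LF replicate 3 had a sum of 2.51 CPM, with Dusp5 at 10.3 CPM. HF replicates 1 and 2 had sums of 10.05 and 9.51 CPM, within the LF range, with Dusp5 at 8.86 and 10.8 CPM. In batch 2, in the order of the sums above, Dusp5 stood at 23.5, 17.0, 13.9 and 13.1 CPM in LF samples. It stood at 9.99, 9.47 and 9.66 CPM in HF samples and at 19.1, 14.6, 20.7, 14.9 and 12.4 CPM in HF-LF samples. Of 6 fibroblast genes 0 were called by edgeR in batch 2, at sums of 9.29 to 33.4 CPM in LF and 4.29 to 16.03 CPM in HF samples. The share of these cells in the differences of Dusp1, Dusp4, Dusp5 and Dusp8 was not tested. Of the 11 epithelial genes 0 were called by edgeR in batch 2, and their sum averaged 18220 CPM in LF and 20230 CPM in HF samples. Among the other epithelial lists of batch 2, 1 of 6 goblet and 2 of 5 enteroendocrine genes were called higher in HF samples, and of 4 stem and progenitor genes 1 was higher and 1 lower, beside 7.44% of all genes called. The most abundant goblet gene, Muc2, had a log2 fold change of -0.56 (adjusted p = 0.0766), and the goblet sum averaged 33930 CPM in LF and 29220 CPM in HF samples.

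Across the 23 samples, centred on the mean of each batch, each member can be placed beside the genes whose pattern is most like it. The likeness is a Pearson r of log2 CPM, with Spearman rho beside it, and it is a description, since diet groups shape all of these patterns. Dusp1 was nearest to Atf3 (r = 0.946, rho = 0.931), Jun (r = 0.945, rho = 0.959) and Ppp1r15a (r = 0.931, rho = 0.937), all early or stress response genes. Dusp5 was nearest to Zyx (r = 0.941, rho = 0.958), Col16a1 (r = 0.924, rho = 0.914) and Cul9 (r = 0.921, rho = 0.95). For Dusp8 the nearest were Ubald1 (r = 0.931, rho = 0.928), Sh2b1 (r = 0.929, rho = 0.889) and Egr1 (r = 0.912, rho = 0.882), the last an early target of ERK. Dusp16 lay nearest to Fbxl22 (r = 0.936, rho = 0.898), Pcnx (r = 0.909, rho = 0.876) and Ugt1a2 (r = 0.895, rho = 0.8). Likeness was weaker for the rest. Dusp4 had Cdyl2, Ank3 and Abcb1a (r = 0.836, 0.798 and 0.779; rho = 0.771, 0.782 and 0.714). Dusp9 had Car12, Lgals2 and Ugt2b36 (r = 0.819, 0.778 and 0.77; rho = 0.754, 0.819 and 0.607). Dusp6 had Coro1c, Mpzl3 and Arnt2 (r = 0.844, 0.784 and 0.782; rho = 0.639, 0.545 and 0.777). Dusp10 had Ncoa7, Prdm1 and Abca12 (r = 0.814, 0.788 and 0.783; rho = 0.644, 0.646 and 0.655). Dusp2 had Gpr171 and Ppp1r16b (r = 0.743 and 0.718; rho = 0.651 and 0.659). Dusp7 had Cops7a, Ier5l and Bax (r = 0.721, 0.692 and 0.684; rho = 0.679, 0.604 and 0.7).

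Promoter windows from RefSeq (GRCm38.p6), 250 bases before to 50 bases after the start, were matched for 8 of the 10 members. Dusp4 and Dusp9 had no window in the set of promoters used here. The windows of Dusp1, Dusp5 and Dusp8 are shown because these genes lay lower together in the HF samples of batch 1. Capitals mark the cyclic AMP response element TGACGTCA, its core TGACG, which also lies inside the full element on each strand, and the CArG box, on either strand. The CArG boxes of Dusp5 lie side by side without overlap. The motifs were chosen after the windows and the values of the genes had been seen.
Dusp1 (minus strand, chr17:26508423-26508722): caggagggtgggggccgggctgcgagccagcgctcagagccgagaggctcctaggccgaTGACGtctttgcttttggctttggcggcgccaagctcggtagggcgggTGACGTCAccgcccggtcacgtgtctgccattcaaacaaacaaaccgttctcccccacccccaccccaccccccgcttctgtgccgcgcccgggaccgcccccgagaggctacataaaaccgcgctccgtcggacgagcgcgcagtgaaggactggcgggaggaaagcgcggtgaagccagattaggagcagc
Dusp5 (plus strand, chr19:53528895-53529194): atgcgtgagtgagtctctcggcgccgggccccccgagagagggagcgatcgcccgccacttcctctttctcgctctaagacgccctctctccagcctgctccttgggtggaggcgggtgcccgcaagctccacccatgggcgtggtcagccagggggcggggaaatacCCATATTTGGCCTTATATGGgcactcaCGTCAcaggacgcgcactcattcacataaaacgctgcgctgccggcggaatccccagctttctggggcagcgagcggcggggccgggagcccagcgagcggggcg
Dusp8 (minus strand, chr7:142095235-142095534): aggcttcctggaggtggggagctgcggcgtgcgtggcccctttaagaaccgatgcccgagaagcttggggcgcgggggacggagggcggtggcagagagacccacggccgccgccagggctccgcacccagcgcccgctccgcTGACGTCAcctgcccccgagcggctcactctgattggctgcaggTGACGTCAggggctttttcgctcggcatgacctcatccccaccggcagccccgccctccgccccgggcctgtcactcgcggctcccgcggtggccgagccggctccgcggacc
The full element stood in the windows of Dusp1, with 1 match, and Dusp8, with 2, and of no other matched member, while 1.79% of 32851 promoter windows hold it. The core stood in 5 of the 8 windows, those of Dusp1, Dusp2, Dusp5, Dusp8 and Dusp16, against 20.8% of all windows. The CArG box, the motif of serum response factor, occurred 2 times in the window of Dusp5 and in no other matched member, against 1.63% of all windows. The AP-1 motif TGANTCA and CCGGAA, 1 form of the ETS motif, were in 0 of the 8 windows, and 7.81% and 14.9% of all windows hold them. Other forms of the ETS motif were not searched. These matches describe letters in a window of 300 bases and show no binding. As the motifs were chosen after the windows were seen, the shares beside them test no enrichment.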

How the data were processed

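The authors deposited counts: whole reads assigned to each gene, with no scaling. By the methods of the study, adapters were trimmed with CutAdapt 1.2.1, reads mapped to mm10 with STAR 2.5 and counted with featureCounts 1.5.0-p1. The library kit was stranded, and the methods at hand do not say whether counting used strand or how reads with several hits were treated. Counts were fitted here with edgeR 4.0.16 in R 4.3.3 (TMM factors, filterByExpr, quasi-likelihood F test), with the 3 diets in 1 fit per batch and with batch as a covariate over both. The filter grouped samples by diet and batch, which kept 14428, 14377 and 14725 genes. Grouping by diet alone over both batches, which kept 14385 genes, was tried after the data were seen and is given as an alternative. A call takes a fold change above 1.2 together with a Benjamini-Hochberg adjusted p under 0.05. Alternatives were DESeq2 1.42.0, limma 3.58.1 voom with sample weights, RLE factors, no filter, robust estimation, only the 2 groups compared, no fold threshold, the replicate block, and each sample left out. Levels per kb use GENCODE vM21 exons inside the locus given with the counts, and this length, with its alternative of whole exons, was chosen after the data were seen. Fits were tested on simulated data with planted changes. The direction of the larger planted changes was checked in each fit. A minimum number of them called was required for batch 2 and for both batches, but not for batch 1. Named genes are the members, up to 3 genes of each pathway list with the smallest p for HF over LF over both batches, and up to 3 nearest patterns by Pearson r of log2 CPM (prior count 2). The members and lists were chosen with earlier results of these data known.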

Additional observations from a re-analysis of the deposited data

Results flagged for a closer look

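In the HF-LF samples of batch 2, Dusp7 stood at 10.3 CPM in replicate 2, apart from the other 4 samples, which lay between 6.70 and 7.71 CPM. The gap to the nearest sample was 0.724 of the range of the group, above the limit of 0.71 for 5 samples. The 10 members were looked at in the 4 groups of 4 or 5 samples each, 40 groups in all, and chance sets apart about 1 in 20 groups.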

How the results depend on the processing

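Over both batches, Dusp1, Dusp4, Dusp5 and Dusp8 were called lower in HF than in LF samples under every alternative and without each of the 23 samples, and limma voom also called Dusp9, as higher. Leaving out 1 sample does not leave out 1 mouse if a mouse gave several samples. Of 90 single-gene values, RLE factors kept direction and call of 90, robust estimation of 89, the fit of only the 2 groups of 89, no filter of 88, DESeq2 of 85, limma voom of 71 and the replicate block of 79, and the filter grouped by diet alone, chosen after seeing the data, kept 30 of 30. Without 1 sample, 1252 of 1380 values kept both, 37 lost the call, 14 gained it and 77 turned direction. The cause of these changes was not tested.

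Counts of members moved as follows. HF vs LF, batch 1: from 0 to 2 with DESeq2, 3 with limma voom, 1 with the replicate block and 0 to 2 without 1 sample. HF-LF vs LF, batch 1: from 0 to 1 with DESeq2 and 0 to 1 without 1 sample. HF vs LF, batch 2: from 3 to 4 with limma voom (adding Dusp9), 4 with the replicate block (adding Dusp8), and between 0 and 4 without 1 sample. HF-LF vs HF, batch 2: from 3 to 5 with limma voom (adding Dusp1 and, as lower, Dusp9), 4 (adding Dusp1) with DESeq2, robust estimation, the replicate block and only the 2 groups, and 0 to 5 without 1 sample. HF-LF vs HF, both batches: from 2 to 1 with limma voom (Dusp4), 1 with the replicate block (Dusp5, with Dusp4 at adjusted p = 0.0629), 3 with DESeq2, 3 with no fold threshold and 0 to 4 without 1 sample. Calls over all genes moved for HF vs LF in batch 1 from 0 to 478 (DESeq2), 2422 (limma voom) and 92 (replicate block), and in batch 2 from 1069 to 1856, 1991 and 2080, and to between 15 and 2560 without 1 sample. For HF-LF vs HF they moved in batch 2 from 2084 to between 11 and 2778 without 1 sample.

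The replicate numbers of the labels were not found to pair samples: deviations from group means correlated by -0.381 to 0.386 in batch 1 and -0.119 to 0.389 in batch 2 between samples of the same number, with medians of 0.069 and 0.0768, against -0.0166 and -0.0432 between other samples. With the replicate block, direction turned for values that were not called: HF-LF vs LF, batch 2, Dusp5 0.057, Dusp9 0.036, Dusp16 -0.0044; both batches, HF vs LF, Dusp6 -0.038; HF-LF vs LF, Dusp4 -0.011, Dusp7 0.0068; HF-LF vs HF, Dusp2 -0.027.

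With limma voom it turned for HF vs LF, batch 1, Dusp6 -0.074, Dusp10 -0.13; HF-LF vs HF, batch 1, Dusp8 -0.0018, Dusp10 0.063; batch 2, HF vs LF, Dusp10 0.15; HF-LF vs LF, Dusp2 0.0078; both batches, HF vs LF, Dusp6 -0.19, Dusp7 0.0064; HF-LF vs LF, Dusp10 0.055; HF-LF vs HF, Dusp6 0.11, Dusp7 -0.052. With no filter it turned for Dusp10 (HF vs LF, batch 2, 0.0075) and Dusp7 (HF-LF vs HF, both batches, -0.0005).

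Without 1 sample, the log2 fold changes that turned direction, none of them called, ranged as follows. Batch 1, HF vs LF: Dusp2 -0.66 to 0.31, Dusp6 -0.25 to 0.46, Dusp10 -0.19 to 0.41. Batch 1, HF-LF vs LF: Dusp4 -0.21 to 0.047, Dusp16 -0.014 to 0.095. Batch 1, HF-LF vs HF: Dusp2 -0.81 to 0.15, Dusp5 -0.002 to 0.43, Dusp6 -0.61 to 0.10, Dusp8 -0.0036 to 0.24, Dusp10 -0.56 to 0.030. Batch 2, HF vs LF: Dusp7 -0.0084 to 0.14, Dusp10 -0.20 to 0.086. Batch 2, HF-LF vs LF: Dusp2 -0.40 to 0.26, Dusp5 -0.15 to 0.16, Dusp6 -0.11 to 0.033, Dusp9 -0.099 to 0.12, Dusp8 -0.026 to 0.19, Dusp10 -0.035 to 0.20, Dusp16 -0.0066 to 0.052. Batch 2, HF-LF vs HF: Dusp10 -0.032 to 0.30. Both batches, HF vs LF: Dusp6 -0.23 to 0.096, Dusp7 -0.095 to 0.033, Dusp10 -0.09 to 0.18. Both batches, HF-LF vs LF: Dusp4 -0.036 to 0.068, Dusp7 -0.058 to 0.047, Dusp10 -0.086 to 0.056. Both batches, HF-LF vs HF: Dusp2 -0.15 to 0.31, Dusp6 -0.17 to 0.14, Dusp7 -0.037 to 0.083, Dusp9 -0.20 to 0.14, Dusp10 -0.20 to 0.074. Where Dusp6 and Dusp10 turned in batch 1, the sample left out was HF replicate 3. With few reads for Dusp2 and Dusp9, depth limits what can be said of them.

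For nearest patterns, Spearman in place of Pearson kept fewer than 2 of the 3 genes for Dusp2, Dusp4, Dusp6, Dusp7, Dusp8 and Dusp10.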
